A study of Oryza sativa with 36 samples.

Results

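The circadian clock core genes of rice were followed across 18 leaf RNA-seq libraries. They were 10 genes, chosen by gene identifier out of 55986 genes in the deposited tables, and all 10 were among the 26374 genes kept for testing. The choice was made with earlier results of these data known. OsLHY and an RVE-like MYB gene had already stood out as very low in the Ag and AgTi groups against Seedling, and the other 8 members belong to the same mechanism. The names are those given with the choice. RefSeq (ASM3414082v1) holds exactly 1 gene under the name of 7 of the 10 members, each on the chromosome that the member's identifier gives.

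All plants were japonica rice of the variety TNG67, kept to the tillering stage in a greenhouse under natural light, and leaves were taken. There were 9 groups of 2 biological replicates. Seedling plants are read here as those grown straight from seed. The 8 other groups are read as plants regrown from calli (unorganised tissue grown in culture), with Callus read as regrown without treatment. They are called regenerated here: PB, Callus, Callus+AM, the groups Ag, AgBi and AgTi, and the groups AMT+Hb and AMT+Ab. The sources used here do not spell out AM, Ag, Ti, Bi, AMT, Ab, Hb or PB, nor say how many plants made up a library. The hour at which leaves were cut is not given in the sources used here, so group and hour of harvest cannot be told apart.

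The plant clock is a loop of genes that switch each other off in turn over the day. In Arabidopsis, the MYB factors LHY and CCA1 are made around dawn and repress genes of the evening, the PRR proteins repress LHY and CCA1 in succession through the day, and the evening complex of ELF3, ELF4 and LUX represses PRR genes at night. In rice leaves, OsLHY is likewise a dawn gene and OsPRR1, the counterpart of Arabidopsis TOC1, is an evening gene. Several rice members also act on heading date, among them OsGI, OsPRR37 and OsELF3-1.

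Libraries held 26609812 to 52643973 counts. Seedling and Callus were sequenced more deeply (41582054 to 52643973 counts) than the other 7 groups (26609812 to 33222427 counts). Levels are given as CPM, a library's counts scaled by TMM to a common total. Of 6 listed leaf photosynthesis genes, 1 was absent from the deposited data. All 5 others were above 1 CPM in both libraries of every group. Their sum was 14565 to 27631 CPM in Seedling, Callus, AgBi and AMT+Ab, 5461 to 13640 CPM in Callus+AM, Ag, AgTi and AMT+Hb, and 3661 to 5204 CPM in PB. Of 3 listed shoot meristem genes, none reached 1 CPM in both libraries of any group but PB, and their sum was at most 0.258 CPM in the other 16 libraries and 6.43 to 12.6 CPM in PB. In Seedling and in Callus+AM, 2 of the 3 had 0 counts in both libraries. The sum of 7 listed inflorescence genes was 112 to 399 CPM in PB and 5.58 to 62.2 CPM elsewhere, and all 7 were above 1 CPM in both PB libraries, against 1 of 7 in each other group. The part of these lists in the clock results was not tested. In whole-leaf RNA, fewer cells of a type and less RNA per cell cannot be told apart.

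The Callus+AM libraries stood apart from each other. Replicate 2 held 31.8 CPM of OsLHY and replicate 1 held 3.49 CPM. OsPRR95 was at 437 CPM in replicate 2 and 21.7 CPM in replicate 1, a 20.2-fold gap. Of the 10 members, 4 were over 2-fold apart between these libraries, where 28.1% of all tested genes were. The count was 1 of 10 in AMT+Hb (11% of all genes), and 0 of 10 in Seedling (11%), Callus (8.88%), Ag (19.8%), AgTi (7.35%), AgBi (22.2%), AMT+Ab (8.75%) and PB (12.7%). By distance over the members, a library's closest match was its own partner for 12 of 18 libraries. By Spearman correlation over all tested genes, which is another measure, it was its own partner for 12 of 18 as well. Both Callus+AM libraries missed their partner either way. By the 10 members, measured as distance on log2 CPM, Callus+AM replicate 1 lay closest to Ag replicate 2 and Callus+AM replicate 2 to Callus replicate 1. Both comparisons that use Callus+AM are given with and without each of its libraries.

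**Figure D1:**
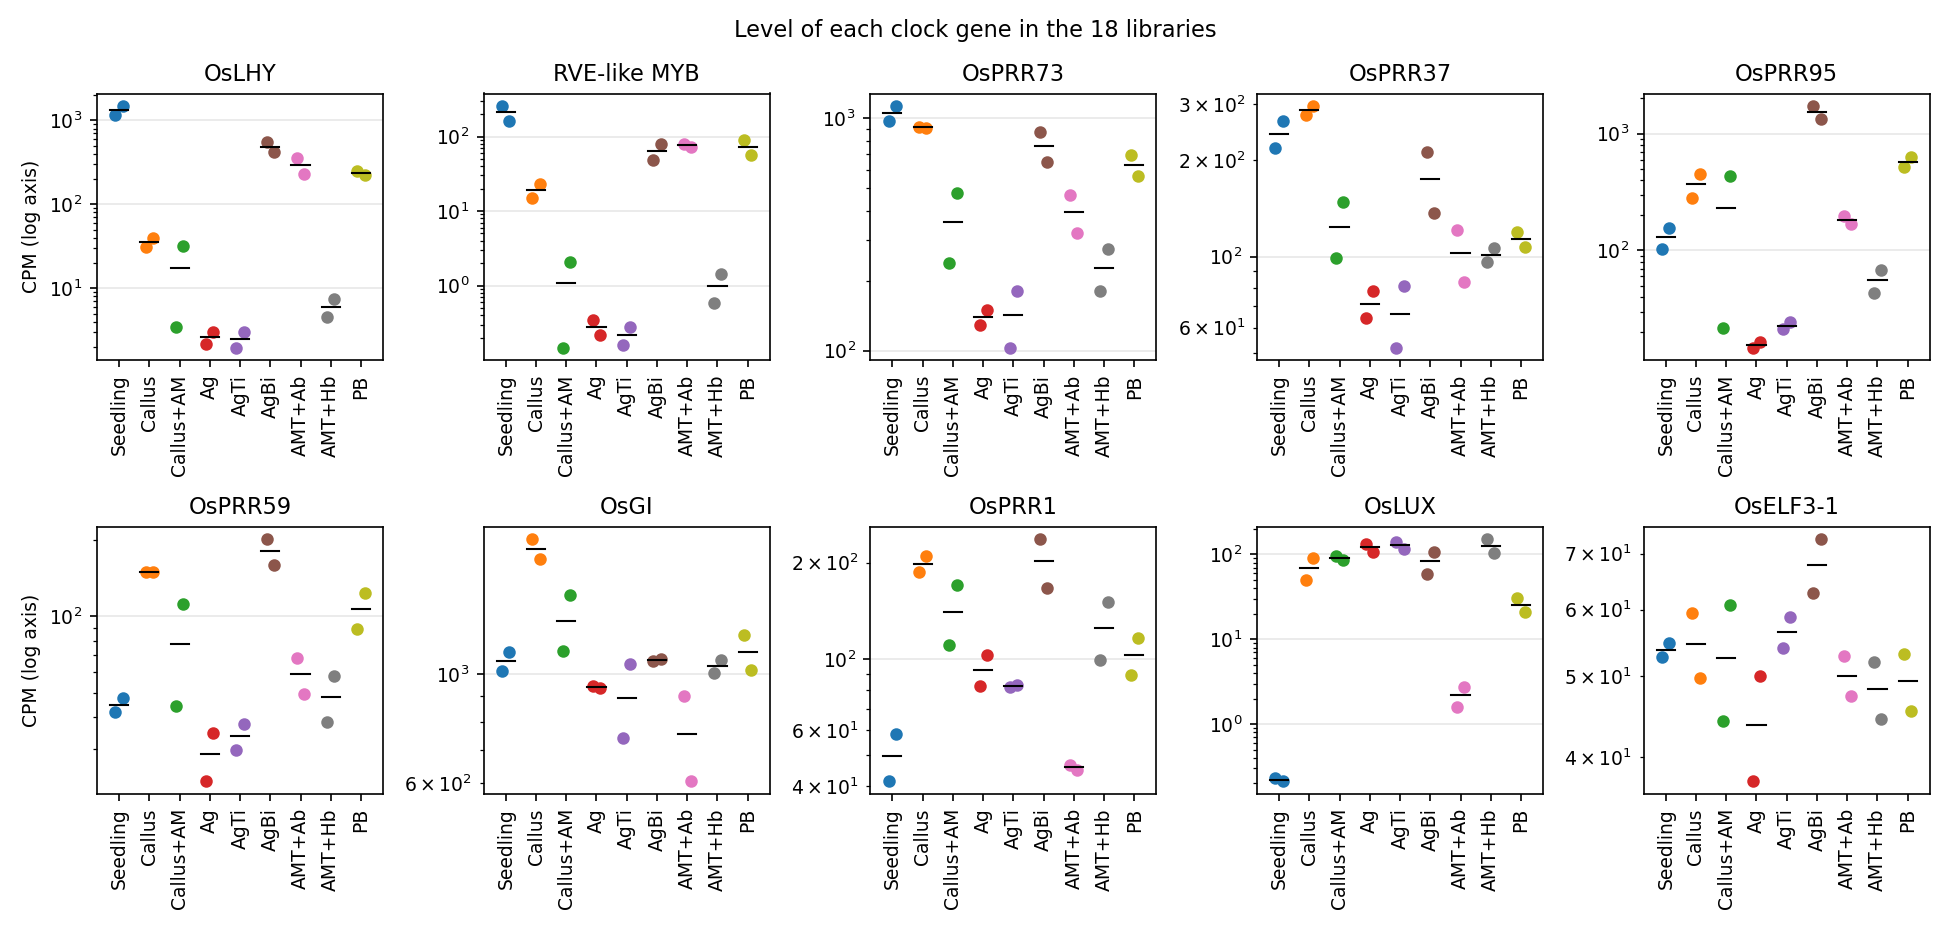
CPM on a log axis of each of the 10 clock genes in the 9 groups; points are libraries (replicate 1 left, replicate 2 right) and bars are means of 2. OsLHY spans 1.95 to 1499.9 CPM and OsELF3-1 spans 37.4 to 72.9 CPM.

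Among the dawn genes, OsLHY (LOC_Os08g06110, chromosome 8), a MYB repressor of evening genes, had the highest levels in Seedling, at 1158 and 1499.9 CPM in replicates 1 and 2. It was at 549.5 and 424 CPM in AgBi, 361 and 228 CPM in AMT+Ab, and 252 and 226 CPM in PB. Callus held 30.9 and 40.1 CPM and Callus+AM 3.49 and 31.8 CPM. The lowest group means were those of AMT+Hb at 4.50 and 7.41 CPM, Ag at 2.15 and 3.06 CPM, and AgTi at 1.95 and 3.01 CPM. All 16 regenerated libraries thus lay below both Seedling libraries. In the order of group means, the libraries of AMT+Ab overlapped with those of PB, Callus with Callus+AM, Callus+AM with AMT+Hb, and Ag with AgTi, and every other pair of neighbours was apart. The 4 groups with the least OsLHY were also those with a leaf list sum of 5461 to 13640 CPM, while PB had the lowest leaf sum with 226 and 252 CPM of OsLHY.

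The RVE-like MYB gene (LOC_Os06g51260, chromosome 6) belongs by name to the LHY-related MYB factors. Seedling held 260.03 and 160.4 CPM of it. The next levels were 79.4 and 72.4 CPM in AMT+Ab, 90.4 and 55.9 CPM in PB, and 48.7 and 78.6 CPM in AgBi, and these 3 groups overlapped. Callus was at 15.1 and 23.0 CPM. Below 3 CPM were Callus+AM at 0.146 and 2.05 CPM, AMT+Hb at 0.582 and 1.42 CPM, Ag at 0.341 and 0.214 CPM, and AgTi at 0.160 and 0.276 CPM. The lowest of these libraries, Callus+AM replicate 1 and AgTi replicate 1, rest on 6 counts each. Callus stood apart from the groups above and below it, as Seedling did from AMT+Ab.

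Of the day-phased repressors, OsPRR73 (LOC_Os03g17570, chromosome 3) was also highest in Seedling, at 976 and 1131 CPM. Callus followed at 919 and 908 CPM, AgBi at 873 and 648 CPM, and PB at 695 and 563 CPM. The lowest group means were those of Ag, at 128 and 149.8 CPM, and AgTi, at 103 and 181 CPM. AMT+Ab held 466 and 321 CPM, Callus+AM 238 and 476 CPM, and AMT+Hb 181 and 274 CPM, and these neighbours overlapped, as did AMT+Hb with AgTi. OsPRR37 (LOC_Os07g49460, chromosome 7), a repressor of heading in long days in rice, had a narrower range of 51.9 to 297 CPM, with the lowest library in AgTi and the highest in Callus. AgTi held 51.9 and 80.8 CPM of it, and AgBi 212 and 137 CPM, so these groups did not overlap.

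OsPRR95 (LOC_Os09g36220, chromosome 9) had the widest range of the PRR genes, 14.7 to 1734 CPM. It peaked in AgBi at 1734 and 1345 CPM, then PB at 517 and 631 CPM and Callus at 284 and 451 CPM. Seedling held 104 and 156 CPM and AMT+Ab 196 and 169 CPM. It was low in AMT+Hb at 43.0 and 68.0 CPM, in AgTi at 21.3 and 24.4 CPM, and in Ag at 14.7 and 16.5 CPM. Unlike OsLHY, it was therefore lower in Seedling than in 9 of the 16 regenerated libraries and higher than in 7. OsPRR59 (LOC_Os11g05930, chromosome 11) ran from 22.3 CPM in Ag replicate 1 to 201 CPM in AgBi replicate 1, and Seedling held 42.0 and 47.7 CPM. AgTi held 29.7 and 37.6 CPM, PB 88.7 and 124 CPM, and Callus 149 CPM in both libraries. AgBi, at 201 and 158 CPM, was above all other libraries.

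OsGI (LOC_Os01g08700, chromosome 1), which encodes the large plant protein GIGANTEA, varied little, from 606 CPM in AMT+Ab replicate 2 to 1873 CPM in Callus replicate 1. Callus, at 1873 and 1711 CPM, was above every other library. The next highest libraries were Callus+AM replicate 2 at 1443 CPM and PB replicate 1 at 1198 CPM.

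Among the evening genes, OsLUX (LOC_Os01g74020, chromosome 1), the DNA-binding member of the evening complex, ran opposite to OsLHY at its extremes. Both Seedling libraries held 8 counts, or 0.232 and 0.211 CPM. AMT+Ab held 1.60 and 2.77 CPM and PB 30.4 and 20.8 CPM. The other 6 groups lay between 49.9 and 152 CPM, with AMT+Hb at 152 and 103 CPM, AgTi at 142 and 114 CPM, and Ag at 134 and 108 CPM. AgTi, AMT+Hb and Ag overlapped, as did Callus+AM, AgBi and Callus. These sets also met, since AgBi replicate 2, at 107 CPM, lay above AMT+Hb replicate 2, at 103 CPM. AgBi, with high OsLHY, held 58.5 and 107 CPM of OsLUX, so high OsLHY did not always go with low OsLUX.

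OsPRR1 (LOC_Os02g40510, chromosome 2) was lowest in Seedling, 41.5 and 58.5 CPM, and in AMT+Ab, 46.8 and 45.0 CPM, and these groups overlapped. It was highest in AgBi, 237 and 167 CPM, and Callus, 187 and 210.4 CPM, which also overlapped. Between these lay AMT+Hb at 99.0 and 150.3 CPM, Ag at 82.2 and 103 CPM, and AgTi at 81.6 and 83.1 CPM. OsELF3-1 (LOC_Os06g05060, chromosome 6), the scaffold of the evening complex, varied least of the 10, by 1.95-fold between its lowest and highest library.

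**Figure D2:**
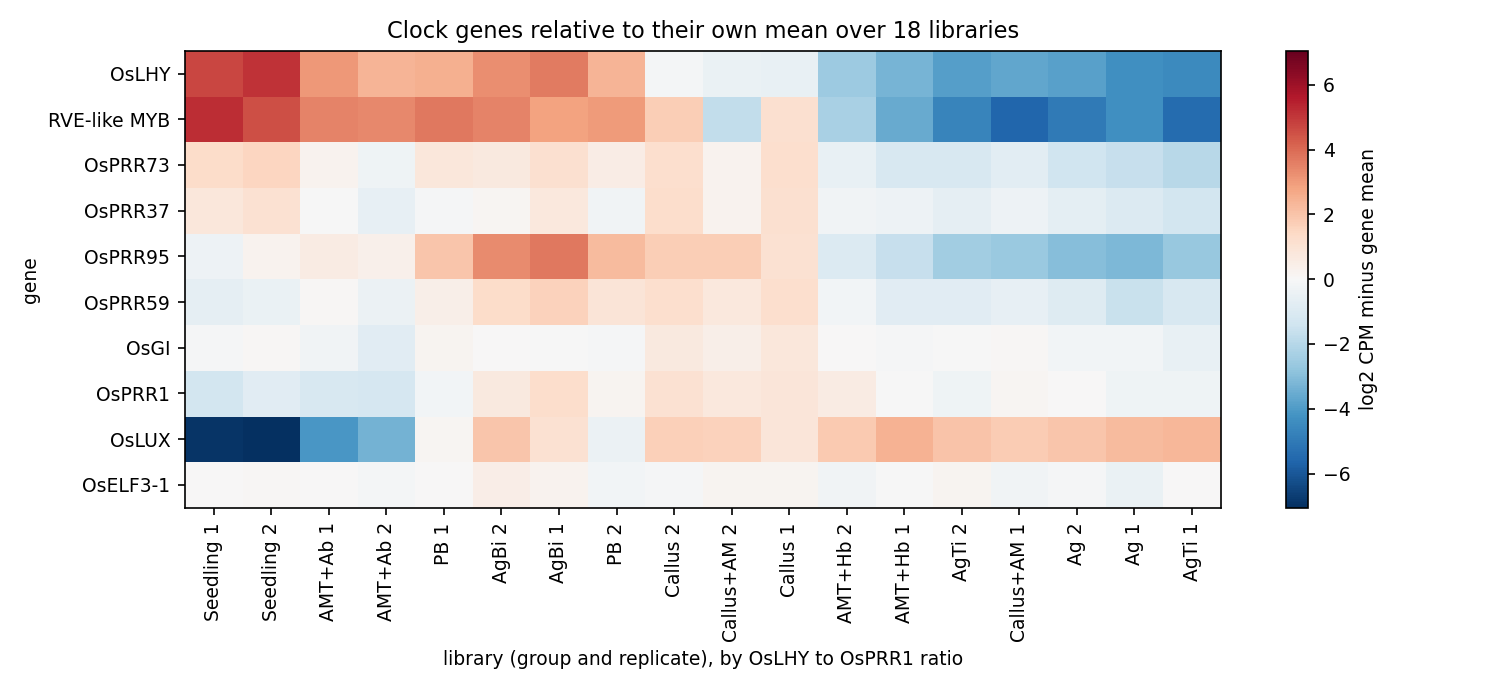
Log2 CPM of each clock gene minus its mean over 18 libraries (colour), with libraries ordered by the ratio of OsLHY to OsPRR1. OsLHY is high and OsLUX low in the Seedling columns at the left, and the Callus+AM columns do not sit together.

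On the deposited FPKM scale, which accounts for gene length, OsLHY was below OsPRR1 in 10 of the 18 libraries and above it in the 8 libraries of Seedling, AMT+Ab, PB and AgBi. The FPKM ratio of OsLHY to OsPRR1 was 25.5 and 23.5 in Seedling and 7.03 and 4.61 in AMT+Ab. It was 2.57 and 1.76 in PB and 2.10 and 2.31 in AgBi. The ratio was 0.150 and 0.175 in Callus and 0.170 in Callus+AM replicate 2. In Callus+AM replicate 1, Ag, AgTi and AMT+Hb it was between 0.0217 and 0.0454. No library fell between 0.175 and 1.76.

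**Figure D3:**
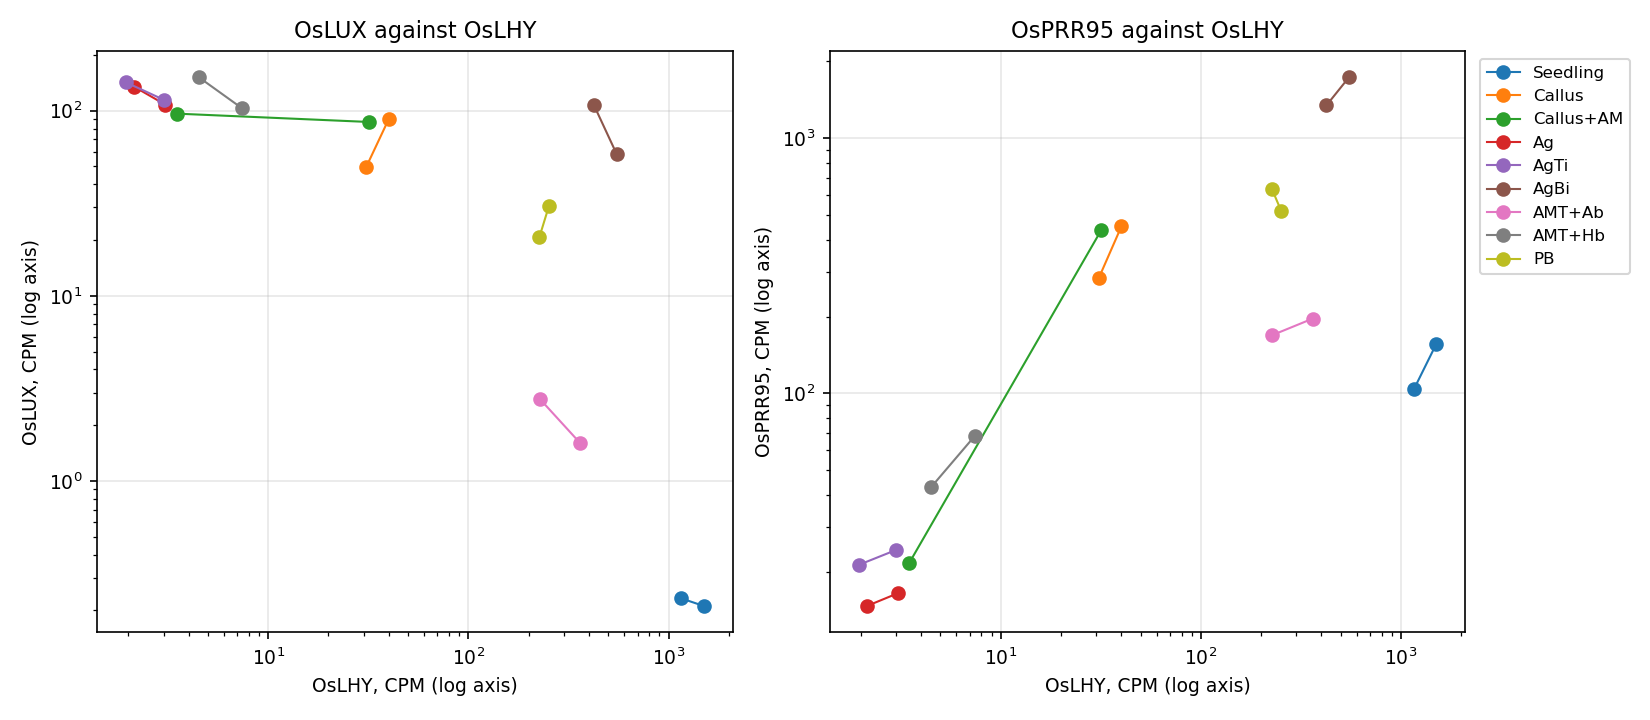
OsLUX (left) and OsPRR95 (right) against OsLHY, CPM on log axes, 1 point per library with a line joining the 2 libraries of a group. Seedling lies at high OsLHY with OsLUX near 0.2 CPM, AgBi combines high OsLHY with the highest OsPRR95, and the Callus+AM line spans 21.7 to 437 CPM of OsPRR95.

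Against Seedling, members were chosen with such values in view, so these counts are description and nothing is read from them. By edgeR's quasi-likelihood test at an adjusted p below 0.05, 5 of 10 members passed in Callus (19.4% of all tested genes), 6 in Callus+AM (31.4%), 7 in Ag (31%) and 6 in AgTi (31.4%). In AgBi 4 passed (23.1%), in AMT+Ab 4 (30.6%), in AMT+Hb 6 (34.8%) and in PB 5 (38.1%). These 8 comparisons share the Seedling libraries. For AMT+Ab and for PB, leaving out any 1 library of the groups compared lowered the count of members. The share of all tested genes called also fell in each of these runs. All 16 regenerated libraries were below both Seedling libraries for 3 members, OsLHY, the RVE-like gene and OsPRR73, where 10.6% of all tested genes were, and above both for 1 member, OsLUX, where 9.23% were.

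Whether the 8 regenerated groups differed among themselves was tested without Seedling in the contrast. Of 10 members, 9 passed, or 7 of the 8 not already known as extreme in Ag and AgTi, beside 49.5% of all tested genes. Besides OsLHY and the RVE-like gene, for which no p is given here, those below an adjusted p of 0.01 were OsLUX (edgeR adjusted p = 0.000155), OsPRR73 (0.0012), OsPRR95 (0.00167), OsPRR59 (0.00183), OsPRR37 (0.00238) and OsPRR1 (0.00271). OsGI passed at an adjusted p of 0.0416, and 11 of 22 other settings ended its call, with adjusted p up to 0.311. These were no filter on low counts, the replicate number as a block, the contrast without Callus, and leaving out Callus replicate 1 or 2, AgTi replicate 1, AMT+Ab replicate 2, or either library of AMT+Hb or PB. OsELF3-1 did not pass (edgeR adjusted p = 0.284). The median log2 range of the 8 regenerated group means was 2.71 over the members and 1.68 over all tested genes.

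Steps between neighbouring treatments were compared next. In Callus+AM against Callus, the RVE-like MYB gene was the only member called, at 0.146 and 2.05 CPM against 15.1 and 23.0 CPM, a log2 fold change of -4.15 (SE 0.802, edgeR adjusted p = 0.0402), where 0.792% of all tested genes were called. The call ended without Callus replicate 1 or 2 (adjusted p = 0.146 and 0.0816), with no filter on low counts, and with the replicate number as a block. Without Callus+AM replicate 2, where 2.33% of all genes were called, 5 members were lower, with log2 fold changes of -6.99 for the RVE-like gene, -4.07 for OsPRR95, -3.33 for OsLHY, -1.93 for OsPRR73 and -1.75 for OsPRR59. Without replicate 1, where 6.91% of all genes were called, the RVE-like gene was the only member called, at -3.24 (edgeR adjusted p = 0.0124), and OsPRR95 was at 0.23. This comparison also crosses the depth sets, and that part was not tested.

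In Ag against Callus+AM, edgeR called 0 members and 0 genes in all (0%). At an unadjusted p below 0.05 there were 5 members and 3406 genes. DESeq2 called 266 genes, among them OsLHY, OsPRR73, OsPRR95 and OsPRR59, and limma called 0. Without Callus+AM replicate 1, edgeR called 3.67% of all genes and 5 members, all lower in Ag. They were OsPRR95, OsPRR59 and OsPRR73, 3 of the 8 not already known as low in Ag, and OsLHY and the RVE-like gene. Without replicate 2 it called 0. The log2 fold change of OsPRR95 without replicate 1 was -4.79 (edgeR adjusted p = 0.000391).

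In AgTi against Ag, edgeR called 0 members and 0 genes (0%), with 0 members and 1591 genes at an unadjusted p below 0.05. DESeq2 called 59 genes and limma 0, with 0 members in either. The members' log2 fold changes lay between -0.31 for the RVE-like gene and 0.55 for OsPRR95.

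In AgBi against AgTi, the dawn genes and the PRR genes were higher in AgBi. At an adjusted p below 0.05, 7 of 10 members were called higher in AgBi and 0 were called lower. Those called higher were 5 of the 8 not already known as low in AgTi. Of all tested genes, 19.6% were called in either direction and 10% higher in AgBi. OsPRR95 rose by 6.08 on the log2 scale (SE 1.02, edgeR adjusted p = 0.0034), from 21.3 and 24.4 CPM to 1734 and 1345 CPM. OsPRR73 rose by 2.42 (SE 0.399, adjusted p = 0.00298) and OsPRR59 by 2.42 (SE 0.408, adjusted p = 0.00335). OsPRR37 rose by 1.40 (adjusted p = 0.0109) and OsPRR1 by 1.29 (adjusted p = 0.013). OsLHY and the RVE-like gene differed by 7.61 and 8.16 on the log2 scale, given as description. OsLUX (log2 fold change -0.63), OsGI (0.26) and OsELF3-1 (0.27) did not pass. Without AgTi replicate 1 the share of all genes called was 2.27% and the count of members was 2, the 2 dawn genes already known as low in AgTi, with adjusted p of 0.0524 for OsPRR73, 0.0562 for OsPRR59 and 0.0564 for OsPRR95. The call of OsPRR37 also ended without AgBi replicate 1, and that of OsPRR1 without AgTi replicate 2 or AgBi replicate 1.

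**Figure D4:**
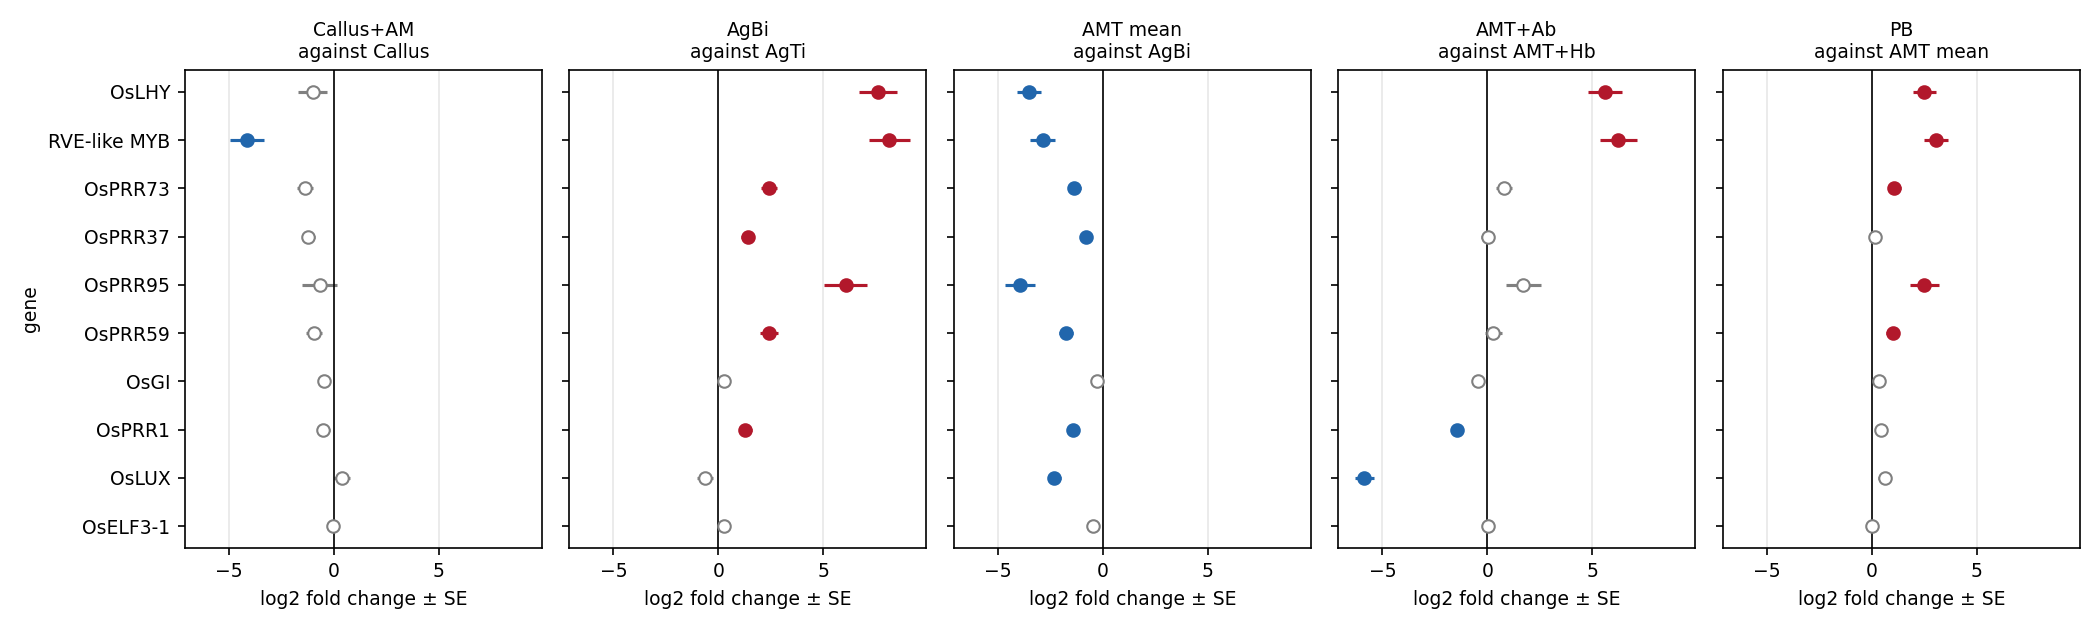
Log2 fold change ± SE from edgeR of the 10 clock genes in 5 comparisons. AMT mean stands for AMT+Hb and AMT+Ab averaged with equal weight on the log2 scale. Filled points (red higher, blue lower) have an adjusted p below 0.05. OsLHY and the RVE-like gene are higher in AMT+Ab than in AMT+Hb while OsLUX and OsPRR1 are lower. In AgBi against AgTi, the filled points of OsLHY and the RVE-like gene are description only, as both were already known as low in AgTi.

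In AMT+Ab against AMT+Hb, both dawn genes rose while OsLUX and OsPRR1 fell. OsLHY rose by 5.63 on the log2 scale (SE 0.821, edgeR adjusted p = 0.00279) and the RVE-like gene by 6.24 (SE 0.877, adjusted p = 0.00224). OsLUX fell by 5.86 (SE 0.461, adjusted p = 4.58e-05), from 152 and 103 CPM to 1.60 and 2.77 CPM. OsPRR1 fell by 1.44 (SE 0.302, adjusted p = 0.016), a call that ended without AMT+Ab replicate 1 or 2 or AMT+Hb replicate 2 (adjusted p up to 0.156). These were 4 of 10 members, beside 6.42% of all tested genes. OsPRR73, OsPRR37, OsPRR95, OsPRR59, OsGI and OsELF3-1 did not pass. Both groups lie in the shallower depth set. Neither is among the groups in which OsLHY and the RVE-like gene are said above to have stood out. Members were still chosen with earlier results of these data known, so these p-values are not shown to be free of that choice.

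At an adjusted p below 0.05, 8 of 10 members were called lower in the mean of AMT+Ab and AMT+Hb than in AgBi, and 0 higher. OsGI (log2 fold change -0.27) and OsELF3-1 (-0.47) were not called. Of all tested genes, 25.1% were called in either direction and 13.7% lower. This mean is taken over the fitted log2 levels of AMT+Ab and AMT+Hb, not over their CPM. Where these groups differ, it lies below a mean of their CPM, so the falls are larger than plain means would give. Because AMT+Ab and AMT+Hb differed from each other, this mean lies between unlike groups. OsPRR95 was lower in each of them than in AgBi and fell by 3.93 on the log2 scale (SE 0.704, edgeR adjusted p = 0.00311). OsLHY fell by 3.54 (SE 0.571, adjusted p = 0.00198), OsLUX by 2.31 (SE 0.312, adjusted p = 0.000945) and OsPRR1 by 1.42 (SE 0.247, adjusted p = 0.00269). For OsLUX the groups averaged lay on either side of AgBi or overlapped it: AMT+Ab held 1.60 and 2.77 CPM, AMT+Hb 152 and 103 CPM, and AgBi 58.5 and 107 CPM. The RVE-like gene fell by 2.87 (SE 0.587, adjusted p = 0.0056), although AMT+Ab, at 79.4 and 72.4 CPM, overlapped AgBi, at 48.7 and 78.6 CPM, while AMT+Hb held 0.582 and 1.42 CPM. OsPRR59 fell by 1.75 (SE 0.323, adjusted p = 0.00345). OsPRR73 fell by 1.35 (adjusted p = 0.0103; 0.0775 without AgBi replicate 1), and OsPRR37 by 0.77 (adjusted p = 0.044), a call that ended without AgBi replicate 1, AMT+Ab replicate 2 or either AMT+Hb library, or with the replicate number as a block.

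PB was above the mean of AMT+Ab and AMT+Hb for 5 of 10 members and below it for 0. Of all tested genes, 33.3% were called in either direction and 17.4% higher. The AMT mean is again taken over log2 levels, so where AMT+Ab and AMT+Hb differ the rises are larger than plain means of CPM would give. The RVE-like gene rose by 3.07 on the log2 scale (SE 0.588, edgeR adjusted p = 0.00285) and OsLHY by 2.52 (SE 0.562, adjusted p = 0.00595). For both genes PB overlapped AMT+Ab and had a slightly lower mean, 239 against 295 CPM for OsLHY and 73.1 against 75.9 CPM for the RVE-like gene, while AMT+Hb held 4.50 and 7.41 CPM of OsLHY and 0.582 and 1.42 CPM of the RVE-like gene. OsPRR95 rose by 2.51 (adjusted p = 0.0154), OsPRR73 by 1.07 (adjusted p = 0.0221) and OsPRR59 by 0.99 (adjusted p = 0.0337). Without AMT+Ab replicate 2, AMT+Hb replicate 1 or either PB library, 2 of 10 members were called, OsLHY and the RVE-like gene, beside 22.1%, 23.1%, 13% (without PB replicate 1) and 16.6% of all genes (without PB replicate 2). PB also differed in the meristem and inflorescence lists given above.

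The rest of the mechanism was followed through 5 further identifiers listed as clock-associated, covering homologs of ELF3 and ELF4 and of the ZTL and FKF1 light receptors that act with GI. The files do not pair these identifiers with names, so they are given by identifier. Of the 5, 3 differed among the 8 regenerated groups (49.5% of all tested genes did). LOC_Os11g34460 ran from 4.26 CPM in Seedling replicate 1 to 197 CPM in AgBi replicate 1 (edgeR adjusted p among regenerated groups = 0.00176). LOC_Os01g38530 was at 6.53 and 5.65 CPM in Seedling, 22.8 and 17.4 CPM in AMT+Ab and 36.0 to 82.2 CPM in the other libraries (adjusted p = 0.00817). LOC_Os11g40610 ran from 5.89 to 29.3 CPM (adjusted p = 0.0309), a call that ended under 9 of 22 other settings, the contrast without Callus among them. LOC_Os06g47890 and LOC_Os02g05700 did not pass (adjusted p = 0.543 and 0.493).

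In single steps, LOC_Os11g34460 was higher in AgBi than in AgTi by 3.24 on the log2 scale (SE 0.547, edgeR adjusted p = 0.00348; 0.0526 without AgTi replicate 1). It fell by 2.82 from AgBi to the mean of AMT+Ab and AMT+Hb (SE 0.421, adjusted p = 0.00146). LOC_Os01g38530 fell by 1.30 on the log2 scale from AMT+Hb to AMT+Ab (SE 0.275, edgeR adjusted p = 0.0166), and was not called when AMT+Hb replicate 2, AMT+Ab replicate 1 or AMT+Ab replicate 2 was left out. In PB against the mean of both AMT groups, LOC_Os11g34460 (log2 fold change 1.39, adjusted p = 0.0246) and LOC_Os01g38530 (0.73, adjusted p = 0.0274) were higher and LOC_Os11g40610 (-1.13, adjusted p = 0.0166) lower. All 3 calls ended without AMT+Ab replicate 2 or either PB library. Those of LOC_Os11g34460 and LOC_Os01g38530 also ended without AMT+Hb replicate 1, and that of LOC_Os11g34460 without AMT+Hb replicate 2 and with limma (limma adjusted p = 0.0585).

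Likeness to OsLHY was measured by Spearman correlation of CPM over the 18 libraries, which share groups, and is given as description. Of 18015 other genes with a mean log2 CPM of at least 1, LOC_Os04g33060 (rho = 0.973), LOC_Os08g02210 (rho = 0.969) and LOC_Os05g07870 (rho = 0.961) were most like it. The RVE-like MYB gene ranked 41 (rho = 0.928) and OsPRR73 ranked 298 (rho = 0.841). OsLUX, at rho = -0.810, ranked 17696. Most like OsPRR1 were LOC_Os05g51150 (rho = 0.965), LOC_Os03g38940 (rho = 0.955) and LOC_Os05g05480 (rho = 0.922). Of the members, OsPRR59 (rho = 0.668, rank 357) and OsGI (rho = 0.662, rank 386) were closest to OsPRR1.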

How the data were processed

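Deposited by the authors were 2 tables over 18 RNA-seq libraries, one of estimated counts and one of FPKM. The submitters' processing notes name TopHat, Cuffnorm and Cuffdiff; genome build and strand setting were in none of the sources used here. Since 0.707% of the count values were not whole, they were rounded. The 18 bisulfite samples were not analysed here.

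Counts were tested with edgeR 4.0.16 in R 4.3.3: filterByExpr by group, TMM scaling and a quasi-likelihood fit with 1 coefficient per group over all 18 libraries (9 residual degrees of freedom, common dispersion 0.146), with Benjamini-Hochberg adjustment over all genes tested. Fits were tried on simulated counts with known changes. Unless another tool is named, adjusted p-values are edgeR's, and each SE is the size of the log2 fold change divided by the square root of its F. Alternatives were relative log expression factors, no filter, DESeq2 1.42.0, limma 3.58.1 on log2(FPKM + 1) where a gene's FPKM averaged 1 or more, the replicate number as a block, and leaving out each library; where 1 library remained in a group, it was assumed to vary like the other groups. Libraries were compared after adding 0.1 CPM. Levels are TMM-scaled CPM per library. Members and lists were chosen with earlier results of these data known. All 10 members are named; other genes are the 5 listed clock-associated identifiers and the 3 most like OsLHY and OsPRR1. No promoter or protein sequence was used here, so the planned motif search was not run. No 2 libraries of a group were duplicates within counting noise, with a chi-square of at least 51.7 per degree of freedom.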

Additional observations from a re-analysis of the deposited data

How the results depend on the processing

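In the comparisons without Seedling, no called member or called clock-associated identifier of the list reversed its direction under any alternative run. Other genes were not followed in this way, and single genes were not followed against Seedling. OsPRR95 in Callus+AM against Callus, not called with all libraries, was -4.07 without Callus+AM replicate 2 and 0.23 without replicate 1. With relative log expression factors and limma, every member call in the comparisons among regenerated groups was kept, and counts of members stayed within 1.5 times of those reported in all 16 tests. In Callus+AM against Callus the count of 1 was 3 with DESeq2 (10.3% of all genes called), 0 with no filter on low counts (0.909%) and 0 with the replicate block (0.341%). In Ag against Callus+AM the count of 0 was 4 with DESeq2 (266 genes called in all). The reported fit does not pair samples by replicate number. Of 36 pairs of groups, 9 had same-numbered deviations correlated above 0.1. These correlations ran from -0.477 to 0.26 (median -0.0314), which cannot exclude a pairing in some groups. Outside the comparisons with Seedling, the replicate block ended 3 member calls, those of the RVE-like gene in Callus+AM against Callus, OsPRR37 in AMT against AgBi and OsGI among the regenerated groups. Leaving out 1 library gave 0 to 5 members in Callus+AM against Callus, 0 to 5 in Ag against Callus+AM, 2 to 7 in AgBi against AgTi, 2 to 5 in PB against AMT, 1 to 3 in AMT+Ab against Seedling and 1 to 3 in PB against Seedling. With 2 libraries a group, lost calls reflect fewer samples as well as the library left out. On CPM in place of FPKM, an alternative chosen after seeing the data, OsLHY was also below OsPRR1 in 10 libraries. OsLUX in Seedling (8 counts a library) and the RVE-like gene in Ag and AgTi (6 to 11 counts) rest on few counts, so their folds are imprecise. The same holds for the RVE-like gene in Callus+AM replicate 1 (6 counts) and in AMT+Hb (18 and 44 counts).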
